A study of Danio rerio with 8 samples.

Results

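The miRNAs described here are 6 that mark cartilage, mesenchyme and smooth muscle in vertebrates, namely dre-miR-140, dre-miR-143, dre-miR-145, dre-miR-199, dre-miR-214 and dre-miR-455. They were taken by probe name, without the star forms, from the 248 zebrafish miRNA probes of a microfluidic chip. MC-RR is microcystin arginine arginine, a hepatotoxin made by cyanobacteria. In the MC-RR group, wild-type zebrafish embryos were injected in the yolk at the early cleavage stage with MC-RR dissolved in saline solution, and in the control group embryos were injected with saline solution alone. Total RNA was taken from whole embryos at 72 hpf (hours post-fertilisation), each RNA sample was hybridized to its own array with 1 dye, and each group has 4 arrays, numbered as replicates 1 to 4. The number of embryos pooled per array is not given in the sources used here. MC-RR was injected at a single dose below the median lethal one.

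A miRNA acts by pairing its seed, bases 2 to 8 of the mature strand, with sites in mRNAs, whose translation and stability then fall. In zebrafish, miR-140 is made in cartilage and tunes platelet-derived growth factor signalling while the palate forms. In mammals, miR-143 and miR-145 come from a shared transcript and hold smooth muscle in its contractile state, miR-199 and miR-214 share a transcript made in mesenchyme, and miR-455 is made in chondrocytes. The hairpin of each miRNA gives 2 strands. A star in a probe name tells them apart and was not taken here as a measure of which is more abundant in these embryos.

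The sequences that the chip targets are shown first because the results below turn on which strand and which copy a probe reads. Each is written 5′ to 3′ as the deposited scanner output lists it, with the seed in capitals. The first 6 are the miRNAs under study, and the others are all further probes on the chip with the same miRNA numbers, among them 2 mouse miRNAs from the customer-defined probes.

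dre-miR-140: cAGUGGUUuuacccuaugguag

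dre-miR-143: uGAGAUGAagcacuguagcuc

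dre-miR-145: gUCCAGUUuucccaggaauccc

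dre-miR-199: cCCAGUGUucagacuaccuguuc

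dre-miR-214: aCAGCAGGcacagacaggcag

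dre-miR-455: uAUGUGCCcuuggacuacaucg

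dre-miR-140*: uACCACAGgguagaaccacggac

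mmu-miR-140*: uACCACAGgguagaaccacgga

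mmu-miR-145: gUCCAGUUuucccaggaaucccuu

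dre-miR-199*: uACAGUAGucugcacauugguu

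dre-miR-455b: gUAUGUGCccuuggacuacauu

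The 6 seeds all differ, and no other zebrafish probe on the chip has any of them. The mature strands are 21 to 23 bases long and hold 10 to 13 G or C bases. The target of mmu-miR-145 begins with all 22 bases of dre-miR-145 and ends in 2 further U bases, and that of mmu-miR-140* is the first 22 of the 23 bases of dre-miR-140*. dre-miR-455 and dre-miR-455b share a run of 20 bases, shifted by 1 position, so that their seeds differ while their probes can bind the same RNA. The arms of miR-140 share no run longer than 5 bases and those of miR-199 none longer than 4. In the RefSeq gene table for assembly GRCz12tu, 5 of the 6 miRNAs were matched, all but dre-miR-143. The gene mir140 lies within wwp2, mir145 within a long non-coding RNA gene, and the genes of dre-miR-455 and dre-miR-455b within col27a1b and col27a1a, which encode fibrillar collagen chains. The 3 genes listed for miR-199 lie within dnm1a, dnm2a and dnm3a, which encode dynamins, that in dnm1a also within rabepk. Within dnm3a, mir199-3a and mir214a are neighbours with no listed gene between them.

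The scanner output holds the linear mean intensity of each spot without background subtraction, with 10 spots per probe and 206 blank spots. Between 71 and 224 zebrafish miRNAs per array were above the 95th percentile of the blank spots. Control replicate 4, which gave the 71, had bright blank spots with a percentile of 512, against 49.7 to 188 on the other arrays, so that a probe not above it there is not thereby shown to be without signal. As markers of muscle, nerve, skin, blood, liver, endothelium, cartilage and smooth muscle, 14 miRNAs were set. Of these, 13 were above the blanks on at least 6 of 8 arrays. dre-miR-144, a marker of red blood cells, was above them on 0, while dre-miR-451, the other blood marker, was above them on 7. The markers of cartilage and smooth muscle were dre-miR-140, dre-miR-143 and dre-miR-145 themselves, so these tissues had no separate check. For the values below, intensities were background-corrected by limma's normexp model (offset 50), log2-transformed, averaged over the spots and normalized between arrays by cyclic loess. A miRNA was tested with limma where 4 or more arrays had it above the blank percentile, which 187 passed, and all 6 miRNAs were among them. dre-miR-214 was above the percentile on 8 arrays, dre-miR-143, dre-miR-145 and dre-miR-199 on 7, dre-miR-140 on 6 and dre-miR-455 on 5. Of the 6, only dre-miR-214 was above it on control replicate 4. The brightness of different probes was not compared, since probes differ in how well they bind. In RNA from whole embryos, fewer cells of a type and less of a miRNA per cell cannot be told apart.

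None of the 6 miRNAs was shown to differ between MC-RR and control embryos. The log2 fold changes (MC-RR minus control) ran from -0.32 for dre-miR-140 to 0.30 for dre-miR-199, with 3 above and 3 below 0. Their median was -0.058, beside -0.060 over all 187 tested miRNAs, and their median absolute value was 0.13, beside 0.17. The lowest unadjusted limma p of the 6 was 0.147, so 0 of them were under 0.05, beside 8.56% of all tested miRNAs, 4.28% higher and 4.28% lower with MC-RR. After Benjamini-Hochberg adjustment over all tested miRNAs, 0 of the 187 were under 0.05, and the adjusted p of the 6 lay between 0.774 and 0.983 in limma. The methods' t-test on these same values, unpaired or paired by replicate number, also called 0 of the 6 at an unadjusted p under 0.05. On the deposited table, an input added later for this test, it called 0 unpaired and 1 paired, dre-miR-199. The groups overlapped for each of the 6, while they did not overlap for 3.21% of all tested miRNAs. These p-values cannot show that the levels were equal, and the 95% confidence intervals give the size of change that remains possible. The labels call the arrays of a group biological replicates, but nothing says which embryos or spawnings each came from.

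**Figure D1:**
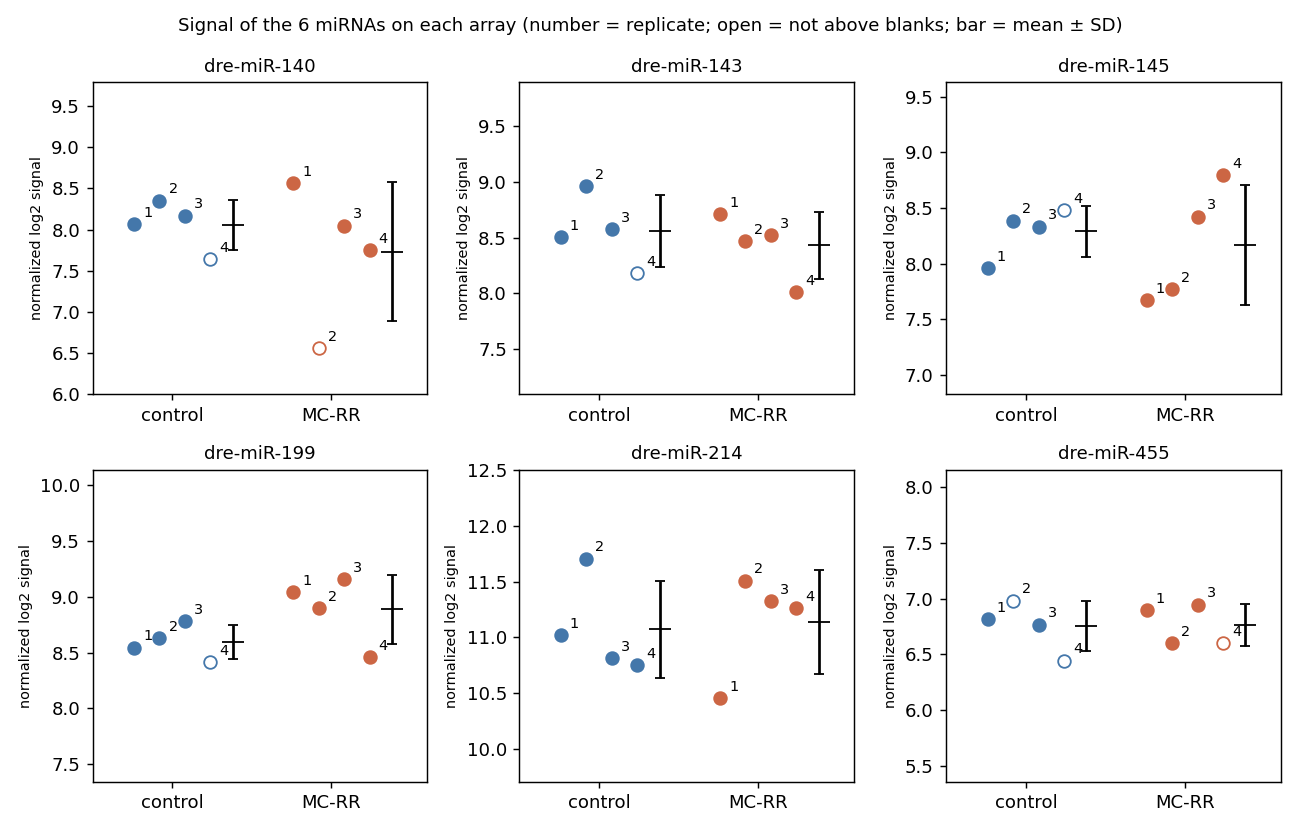
Normalized log2 signal (vertical axis) of each of the 6 miRNAs on the 4 control and 4 MC-RR arrays, with the replicate number beside each point, open points where the probe was not above the 95th percentile of the blank spots, and bars for the mean ± SD. The groups overlap in every panel, and dre-miR-140 on MC-RR replicate 2 lies at 6.56, apart from the other MC-RR arrays at 7.75 to 8.56.

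dre-miR-199, found in mesenchyme and connective tissue, had the highest log2 fold change of the 6. In replicates 1 to 4 it read 8.54, 8.63, 8.78 and 8.42 (normalized log2 signal) with saline and 9.04, 8.90, 9.16 and 8.46 with MC-RR. Of the MC-RR arrays, 3 were above all controls, and replicate 4 lay among them, close to the control of the same number. The controls averaged 8.59 ± 0.15 (SD, n = 4) and the MC-RR arrays 8.89 ± 0.31 (SD, n = 4). MC-RR minus control was thus 0.30 (SE 0.19, 95% interval -0.13 to 0.72), a ratio of 0.915-fold to 1.65-fold. limma gave an unadjusted p of 0.147 and an adjusted p of 0.774, and the two-sided exact permutation test gave 0.143. The smallest p that 4 arrays against 4 allow there is 0.0286.

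dre-miR-199 was also the only one of the 6 whose 4 same-numbered pairs of arrays all went 1 way, higher with MC-RR by 0.50, 0.27, 0.38 and 0.040 on the log2 scale. Of all tested miRNAs, 33.7% had 4 pairs that went 1 way and 12.8% had 4 pairs higher with MC-RR, beside 1 of the 6 (16.7%). A count of 1 does not set the 6 apart from these shares. In the limma model with a replicate block, the SE was 0.11, the unadjusted p 0.0501 and the adjusted p 0.282, and 16% of all tested miRNAs were under 0.05 before adjustment. Its unadjusted p fell under 0.05 on the deposited normalized table with the replicate block, at 0.0327 with a log2 fold change of 0.50, and without MC-RR replicate 4, at 0.0287 with 0.44. The lowest adjusted p over all alternatives was 0.241, on the deposited table with the block in limma. The normalization between arrays moved the median of all tested miRNAs from -0.11 without normalization to 0.099 with median scaling, and relative to that median dre-miR-199 was higher by 0.28 to 0.58 in the alternatives without an array left out. The study had picked dre-miR-199 on these same arrays, so its direction here is not independent of that choice.

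The opposite arm, dre-miR-199*, was above the blanks on 8 arrays. Control embryos gave normalized log2 signals of 12.45, 12.46, 12.15 and 12.22 in replicates 1 to 4, and MC-RR embryos gave 12.59, 12.56, 12.42 and 12.22. It too was higher in 4 of 4 pairs, by as little as 0.0015 in replicate 4, and the groups overlapped. Of all tested miRNAs, 12.8% were higher in 4 of 4 pairs. Its log2 fold change of 0.13 had a 95% interval from -0.22 to 0.47 and a limma p of 0.424, and it was 0.51 with median scaling. The difference between the arms within an array, dre-miR-199 minus dre-miR-199*, shifted by -0.13 from control to MC-RR on the background-corrected log2 scale. On the deposited table the shift had the opposite sign, at 0.37, and was positive in 4 of 4 pairs. On the former scale 1 of 4 pairs had a positive shift. Neither shift passed the two-sided exact permutation test, with p = 0.629 on the former scale and 0.257 on the latter. The test was run unpaired, so it cannot decide the direction within pairs. In normalized log2 signal, the pair differences of dre-miR-199 were 0.50, 0.27, 0.38 and 0.040 in replicates 1 to 4. Those of dre-miR-199* were smaller in each, at 0.14, 0.097, 0.27 and 0.0015. The sign of the shift thus depended on the scale, and no direction was established.

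dre-miR-214, which in zebrafish tunes Hedgehog signalling through suppressor of fused, was the only one of the 6 above the blank percentile on every array. From replicate 1 to 4 in order, the normalized log2 signal stood at 11.02, 11.70, 10.81 and 10.75 with saline and at 10.45, 11.51, 11.32 and 11.26 with MC-RR. The lowest value was an MC-RR array and the highest a control array. MC-RR minus control was 0.065 (SE 0.30, 95% interval -0.62 to 0.75). Pairs 1 and 2 were lower with MC-RR, at -0.57 and -0.20, and pairs 3 and 4 higher, each by 0.51. The limma p was 0.832 and the sign rested on single arrays, with -0.021 without control replicate 3, -0.043 without control replicate 4 and -0.059 without MC-RR replicate 2. Although mir214a has a mir199 gene as its neighbour, Pearson's r between dre-miR-199 and dre-miR-214 over the 8 arrays was -0.038. dre-miR-199 has further genes besides the neighbour of mir214a, and the products of its genes were not measured apart. What set this r was not tested.

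**Figure D2:**
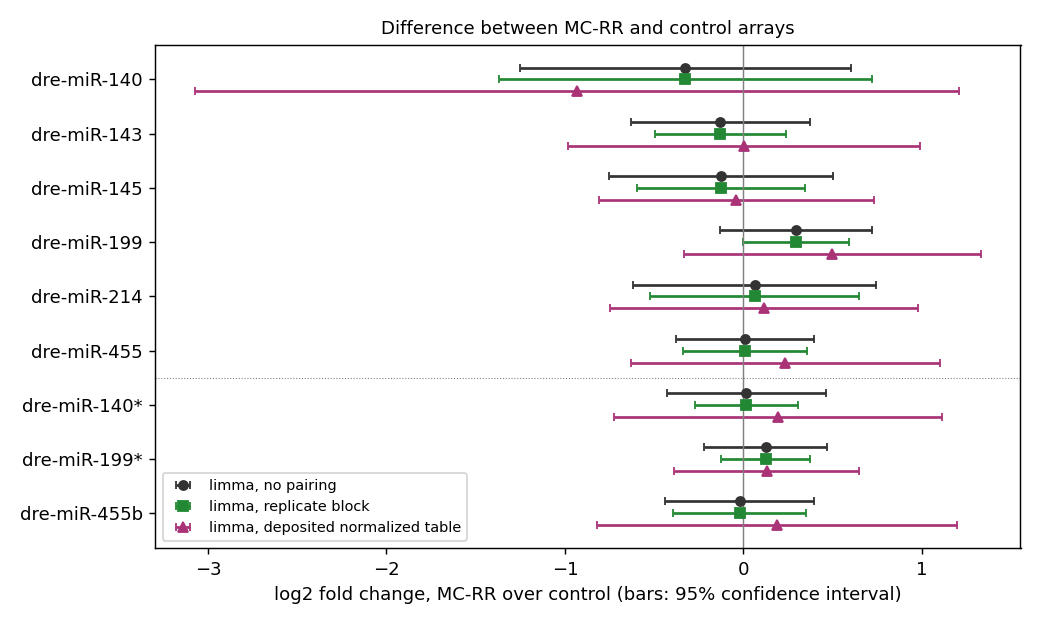
Log2 fold change (MC-RR minus control, horizontal axis) with its 95% confidence interval for the 6 miRNAs and, under the dotted line, the other zebrafish probes of the same miRNA numbers, from limma without pairing, with a replicate block and on the deposited normalized table. All intervals include 0, that of dre-miR-199 with the block by the least, from -0.00016 to 0.59, and the widest is that of dre-miR-140 on the deposited table.

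dre-miR-140, the cartilage miRNA, had the lowest log2 fold change of the 6, and its sign rested on 1 array. The 4 control arrays, in replicate order, read 8.07, 8.35, 8.17 and 7.64 in normalized log2 signal, and the 4 MC-RR arrays 8.56, 6.56, 8.05 and 7.75. MC-RR replicate 2 was the lowest of all 8 arrays and MC-RR replicate 1 the highest. With MC-RR the mean was 7.73 ± 0.85 (SD, n = 4), against 8.06 ± 0.30 (SD, n = 4) for controls, and the log2 fold change of -0.32 had a 95% interval from -1.25 to 0.60, or 0.421-fold to 1.52-fold. On the deposited table the log2 fold change was -0.93 and with the blank median subtracted -1.14, neither of them past the threshold. The limma p was 0.443 and the exact permutation p, two-sided, was 0.6. Without MC-RR replicate 2 the log2 fold change was 0.066, and with both arrays of pair 2 set aside, an alternative added with the values in view, it was 0.16.

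On MC-RR replicate 2, all 10 spots of dre-miR-140 lay between 37.7 and 47.9 in scanner units, with a mean of 43.0. The blank spots of that array had a median of 48.3 and a 95th percentile of 55.8, so the probe gave no signal above them. On the other 7 arrays the mean was between 124 and 504. The 124 was on control replicate 4, where it too was under the blank median, which was 179 on that array with bright blank spots. The deposited normalized table shows the same drop, with 11.1 on MC-RR replicate 2 against 262 on control replicate 2 and 121 to 297 on the other MC-RR arrays.

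The star arm of miR-140 showed no such drop on that array. The 10 spots of dre-miR-140*, set 1 row from those of dre-miR-140, lay between 186 and 301 there with a mean of 243, and those of mmu-miR-140*, which targets the same strand, between 175 and 245 with a mean of 205. Between these star probes the log2 difference within an array, zebrafish minus mouse, shifted by -0.14 from control to MC-RR (exact permutation test, two-sided, p = 0.0571). On control replicate 1, 1 of the 10 spots of mmu-miR-140* read 80.8, and with the median over spots the shift was -0.089 (p = 0.0857 in the same exact test). In normalized log2 signal, dre-miR-140* read 8.78, 8.81, 8.43 and 8.11 in controls 1 to 4 and 8.63, 8.69, 8.56 and 8.32 with MC-RR. Its log2 fold change was 0.017 with a 95% interval from -0.43 to 0.46, and MC-RR replicate 2 was the highest of the MC-RR arrays. The difference between the arms on the background-corrected log2 scale, dre-miR-140 minus dre-miR-140*, was -2.09 on MC-RR replicate 2 and between -0.75 and -0.10 on the other 7 arrays. Over all arrays that difference did not separate the groups (exact permutation test, two-sided, p = 0.743), and its shift from control to MC-RR was -0.30 with MC-RR replicate 2, -1.12 with it on the deposited table and 0.12 without it.

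Low values on that array were not limited to dre-miR-140. On MC-RR replicate 2, 27 of the 187 tested miRNAs were lower than on control replicate 2 by at least 1 on the log2 scale, and 10 of the 27 were not above the blank percentile there. Of the 27, 22 were lowest of the MC-RR arrays there, and the like counts lower by at least 1 were 7, 0 and 2 in pairs 1, 3 and 4. For dre-miR-140 the difference was -1.79, a size set by the background correction since the probe was under the blank median. The probes whose signal over the 8 arrays was most like that of dre-miR-140 were dre-miR-181b with a Pearson's r of 0.924 and dre-miR-30e* with 0.898. Both were also not above the blank percentile on MC-RR replicate 2, so the size of the drop, and with it Pearson's r, depends on the background correction. Spearman's rho was 0.714 and 0.524. What set these probes low on that array was not tested.

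**Figure D3:**
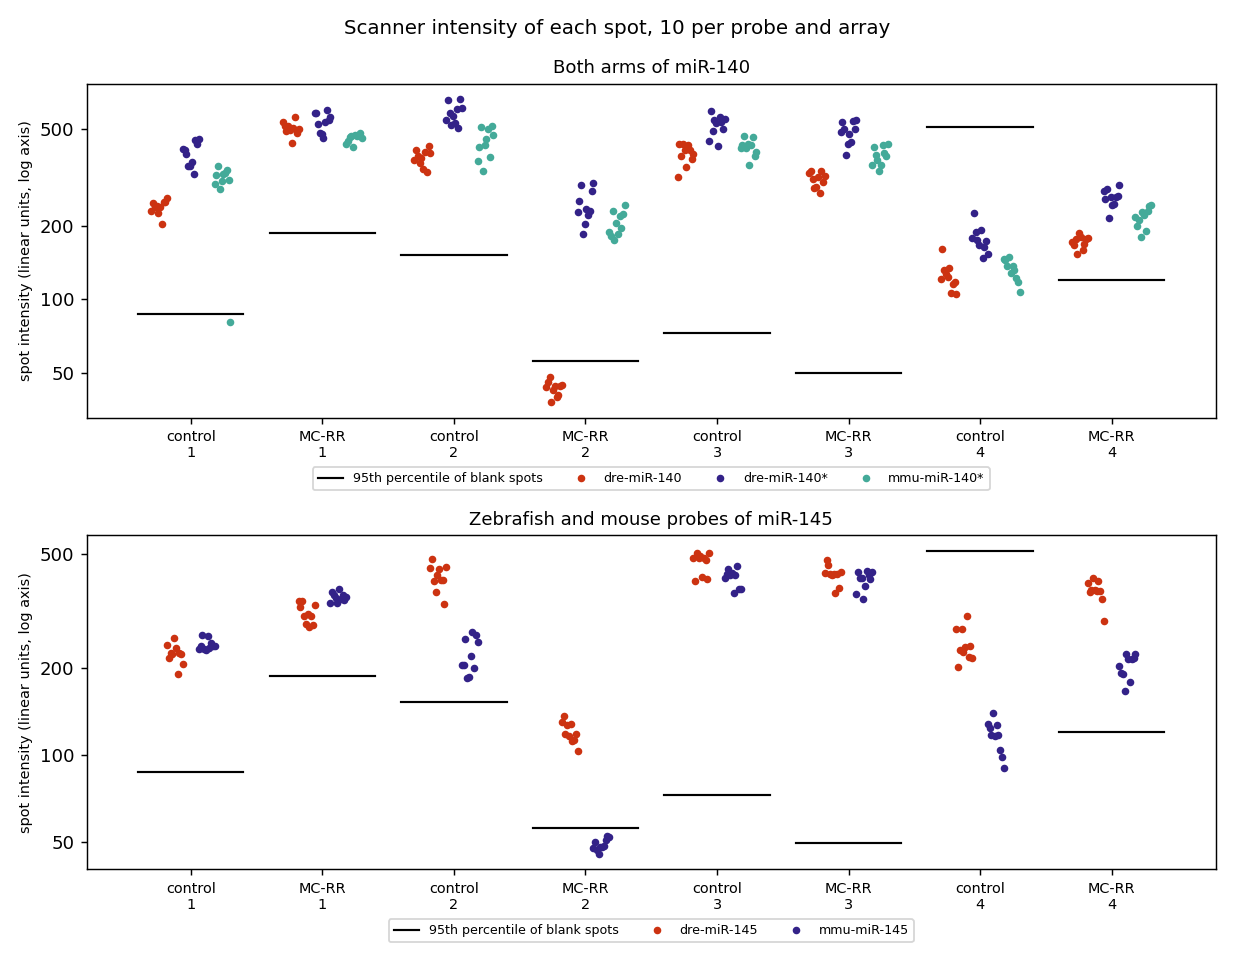
Scanner intensity of each of the 10 spots (vertical log axis, linear units) on each array, above for dre-miR-140, dre-miR-140* and mmu-miR-140* and under it for dre-miR-145 and mmu-miR-145, with a line at the 95th percentile of the blank spots of that array. On MC-RR replicate 2 the spots of dre-miR-140 and mmu-miR-145 lie under the line at 55.8 while those of dre-miR-140*, mmu-miR-140* and dre-miR-145 lie above it.

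dre-miR-145, which marks smooth muscle, varied between arrays more than between groups. Normalized log2 signals in replicates 1 to 4 were 7.96, 8.39, 8.33 and 8.48 for saline and 7.67, 7.77, 8.42 and 8.80 for MC-RR. The MC-RR arrays held both the highest value and the lowest 2. MC-RR minus control was -0.13 (SE 0.27, 95% interval -0.76 to 0.51), with an unadjusted p of 0.660 in limma's model across all tested miRNAs and an exact permutation p of 0.743. It was lower with MC-RR in pairs 1 and 2, at -0.29 and -0.62, and higher in pairs 3 and 4, by 0.090 and 0.31. Its sign turned when MC-RR replicate 1 (0.040), MC-RR replicate 2 (0.0064) or both arrays of pair 2 (0.038) were left out.

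The mouse probe for miR-145 gives a second reading of the same strand. The difference dre-miR-145 minus mmu-miR-145 on the background-corrected log2 scale was between -0.25 and 0.17 on the arrays of replicates 1 and 3 of both groups and between 0.82 and 1.05 on those of replicates 2 and 4. The arrays thus fell apart by replicate number rather than by treatment, a split that was noticed in the values and not tested. mmu-miR-145 was not above the blank percentile on control replicate 4 or MC-RR replicate 2, so the differences on these arrays rest on the background correction, and on MC-RR replicate 2 the deposited table gave 3.18. Between MC-RR and control arrays the difference shifted by -0.058, and by 0.34 on the deposited table (exact permutation test, two-sided, p = 0.83 for both). That test takes no account of the replicate number, so the split by number widens the spread it works against. In 1 of 4 same-numbered pairs the difference was higher with MC-RR, on either scale. On MC-RR replicate 2 the mean of mmu-miR-145 was 48.8, not above the blanks, while that of dre-miR-145 was 120. The probe for the shorter target was thus above the blanks on that array and the probe for the target with 2 more bases was not.

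dre-miR-143, whose mammalian form is made with miR-145, read 8.51, 8.97, 8.58 and 8.18 (normalized log2 signal) in controls 1 to 4 and 8.71, 8.47, 8.53 and 8.01 with MC-RR. Both replicate 4 arrays were the lowest of their group, and 1 of 4 pairs was higher with MC-RR. The difference of -0.13 (SE 0.22) had a 95% interval from -0.63 to 0.37 and a limma p of 0.573. It was 0.0075 without control replicate 2 and 0.011 without MC-RR replicate 4. Although the pair is known in mammals as 1 transcript unit, dre-miR-143 and dre-miR-145 did not rise and fall together here. Their Pearson's r over the 8 arrays was -0.47 and Spearman's rho -0.50, and within the groups r was -0.54. As dre-miR-143 was not matched to a gene, whether the pair shares a transcript in zebrafish was not established here. The replicate 4 arrays, lowest for dre-miR-143, held the highest dre-miR-145 signal of each group. On control replicate 4, neither probe was above the blank percentile. These correlations use the dre-miR-145 probe alone, which differed from mmu-miR-145 more on replicates 2 and 4 than on 1 and 3. They describe these probes, and the mouse probe was not correlated with dre-miR-143.

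dre-miR-455, known from cartilage in mammals, was close to the background. In replicates 1 to 4 it read 6.82, 6.98, 6.77 and 6.44 (normalized log2 signal) with saline and 6.90, 6.60, 6.95 and 6.60 with MC-RR. The scanner means ran from 51.8 to 220, and 2 of the control and 3 of the MC-RR arrays were above the blank percentile. The log2 fold change of 0.0097 had a 95% interval from -0.38 to 0.39 and a limma p of 0.955, and the offset compresses any change this close to the blanks. It was -0.093 when control replicate 4 was left out, -0.035 when MC-RR replicate 1 was, and -0.052 when MC-RR replicate 3 was. dre-miR-455b, above the blanks on 4 arrays, followed it with a Pearson's r of 0.985, and its log2 fold change was -0.021 with a limma p of 0.911. With 20 shared bases, the probes are not independent readings.

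**Figure D4:**
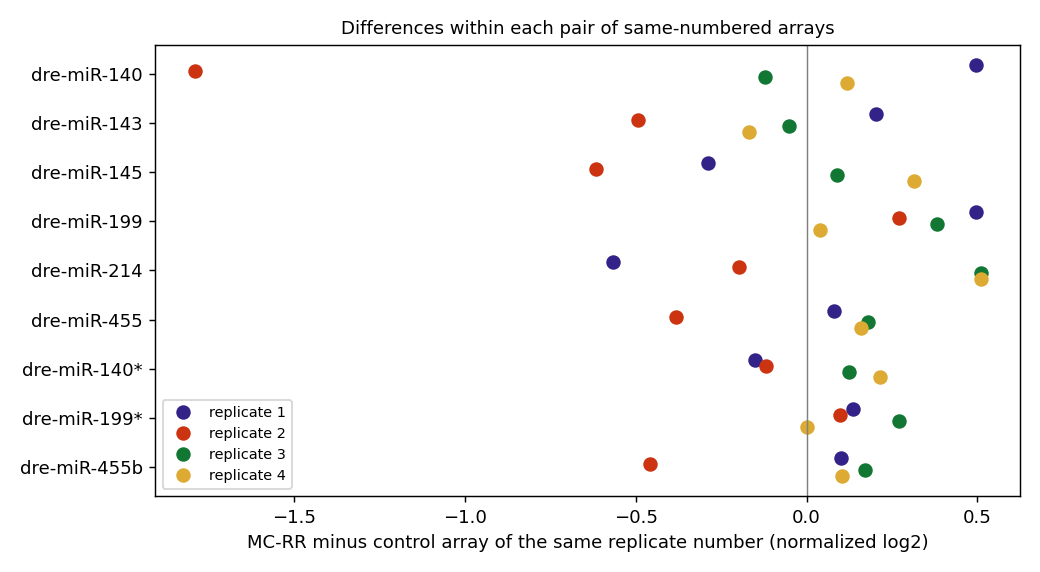
Difference between the MC-RR and the control array of the same replicate number (horizontal axis, normalized log2) for the 6 miRNAs and the other zebrafish probes of the same numbers, with a colour per replicate. dre-miR-199 and dre-miR-199* lie at or above 0 in all 4 pairs, and pair 2 is the lowest for dre-miR-140, dre-miR-143, dre-miR-145, dre-miR-455 and dre-miR-455b, reaching -1.79 for dre-miR-140, which was under the blank median on that MC-RR array.

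The median coefficient of variation over the 10 spots of a probe was between 7.07% for dre-miR-140 and 9.93% for dre-miR-214. The pooled SD between replicates on the log2 scale was 0.21 for dre-miR-455, 0.24 for dre-miR-199, 0.31 for dre-miR-143, 0.41 for dre-miR-145, 0.45 for dre-miR-214 and 0.64 for dre-miR-140, beside a median of 0.34 over all tested miRNAs.

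The 6 miRNAs did not all share 1 pattern across the arrays, though some pairs of them varied together. Over their 15 pairs, Pearson's r over the 8 arrays ran from -0.49 for dre-miR-145 with dre-miR-199 to 0.81 for dre-miR-143 with dre-miR-455, with 10 above and 5 below 0. It was 0.67 for dre-miR-140 with dre-miR-455 and 0.56 for dre-miR-199 with dre-miR-455 (0.70 and 0.66 within the groups). The pairs named with a positive r all include dre-miR-455, which was above the blank percentile on only 5 arrays. On MC-RR replicate 2 dre-miR-140 was under the blank median, so its r with dre-miR-455 also depends on the background correction. The like values over all pairs of tested miRNAs were not computed, so no background stands beside these. The probes most like the other 5 were also mostly of other kinds. For dre-miR-143 they were dre-miR-107b (r = 0.918) and dre-miR-124 (0.908), and for dre-miR-145 dre-miR-10c (0.807) and dre-miR-133b (0.806), a striated muscle miRNA. For dre-miR-199 they were dre-miR-203b* (0.863) and dre-miR-193b (0.831), for dre-miR-214 dre-miR-2190 (0.914) and dre-miR-738 (0.783), and for dre-miR-455 dre-miR-455b (0.985) and dre-miR-101a (0.857). These are descriptions over 8 arrays that share the normalization and, by number, a common deviation.

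Of 13 other miRNAs tied to cartilage, bone or smooth muscle, 12 were tested and dre-miR-29b was not. At an unadjusted limma p under 0.05, 1 was higher with MC-RR, 0 were lower and 0 passed the adjusted threshold, beside 4.28% higher and 4.28% lower of all tested miRNAs. The log2 fold changes were above 0 for 8 and below 0 for 4, with a median of 0.084, beside 87 above, 100 below and a median of -0.060 over all tested miRNAs. The higher one was dre-miR-21, which in rodents rises in injured arteries and in smooth muscle that divides. Controls 1 to 4 read 12.03, 11.58, 11.44 and 11.01 (normalized log2 signal) and the MC-RR arrays 13.93, 12.24, 13.08 and 12.70, without overlap. The groups did not overlap for 3.21% of all tested miRNAs. The log2 fold change of dre-miR-21, 1.47 (SE 0.37), had an unadjusted p of 0.00406 and an adjusted p of 0.379 in limma. The lowest of the list was dre-miR-133a, a miRNA of striated muscle, at -0.60 with a limma p of 0.163. With the replicate block, dre-miR-138, which in human stem cells restrains bone formation, also had an unadjusted p under 0.05 (0.0331), with a log2 fold change of -0.29 and an adjusted p of 0.227 in limma. That made 1 higher and 1 lower of the 12 under the block, where 16% of all tested miRNAs were called.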

How the data were processed

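Array signals came from whole-embryo RNA of 4 MC-RR and 4 control samples. The scanner output, as deposited by the authors, gives the linear mean intensity of each spot, read with a laser scanner and image software by a service provider, with no background subtracted. A deposited normalized table gives 1 linear intensity per probe, which the authors' provider had background-subtracted and normalized with a LOWESS filter. Over the 248 zebrafish probes its columns ranked as the scanner output of the same array did (Spearman's rho 0.999 to 1).

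The scanner values were processed in R 4.3.3 with limma 3.58.1 (normexp with an offset of 50 on the foreground, log2, mean of the spots, cyclic loess over 248 probes). Probes above the 95th percentile of 206 blank spots on at least 4 of 8 arrays were tested with lmFit and eBayes, with Benjamini-Hochberg adjustment over 187. limma was tested on simulated data. Differences between probes within an array used background-corrected log2 values before normalization and two-sided exact permutation tests, unpaired and unadjusted, over 5 pairs of probes.

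The series text speaks of paired embryos. Over tested miRNAs, same-numbered arrays deviated together from their group means, with r of 0.578, 0.291, 0.535 and 0.782 for replicates 1 to 4, so the numbers were taken to pair the arrays. The paper's methods name no pairing, and the unpaired fit is given first. Named are the 6 miRNAs, all other probes of their numbers, the 2 probes most like each, and, of the list of 13 other miRNAs, the extremes and those under the unadjusted threshold. dre-miR-138 was named after its value was seen. The members and lists were chosen with earlier results of these data known. Alternatives covered normalization, background, offset, filter, spot summary, test, pairing, leaving out each array, and use of the deposited table. A slide block was not run, as no slide is given. Genome positions are not given here, since no build is named with the data.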

Additional observations from a re-analysis of the deposited data

How the results depend on the processing

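The number of the 6 miRNAs with an unadjusted p under 0.05 was 0 and became 1 on the deposited table with the replicate block, in limma or the paired t-test, and 0 to 1 with each array left out. That 1 was dre-miR-199, with a log2 fold change of 0.50 there and 0.44 without MC-RR replicate 4. Of the 187 tested miRNAs 16 were under it, and 3 with no normalization, 10 with the blank median subtracted, 29 with the paired form of the methods' t-test, 10 with that t-test on the deposited table and 29 with its paired form there (both added later), 30 with the replicate block, 30 on the deposited table with the replicate block and 7 to 18 with each array left out, lowest without control replicate 3. After adjustment the deposited table called 1 of the 187, and 4 with the replicate block, the paired t-test there called 2, none of them among the 6, and every other alternative called 0.

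The replicate block on the scanner values changed no call of the 6. Some signs turned. dre-miR-143 was 0.17 with the blank median subtracted and 0.0043 on the deposited table, with or without the replicate block. dre-miR-145 was 0.049 with quantile normalization. dre-miR-455 was -0.042 with no normalization and -1.04 with the blank median subtracted, where probes under that median rest on a floor. dre-miR-140* was -0.12 with no normalization. dre-miR-455b was 0.0060 with quantile normalization, 0.14 with median scaling and 0.19 on the deposited table, with or without the replicate block. With pair 2 left out, an alternative added with the values in view, dre-miR-140 was 0.16, dre-miR-145 0.038 and dre-miR-455b 0.12. The cause was not tested.

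With each array left out, log2 fold changes ranged from -0.60 to 0.066 for dre-miR-140, -0.25 to 0.011 for dre-miR-143, -0.34 to 0.040 for dre-miR-145, 0.21 to 0.44 for dre-miR-199, -0.059 to 0.29 for dre-miR-214, -0.093 to 0.086 for dre-miR-455, -0.13 to 0.11 for dre-miR-140*, 0.069 to 0.20 for dre-miR-199* and -0.13 to 0.066 for dre-miR-455b. dre-miR-133a ranged from -0.88 without MC-RR replicate 3, where its limma p was 0.0434, to -0.30 without MC-RR replicate 2. With a filter of all 8 arrays, only dre-miR-214 of the 6 was tested. Signals close to the blanks limit what can be seen for dre-miR-455 and dre-miR-455b.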
